A study of Mus musculus with 10 samples.

Results

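The endoplasmic reticulum (ER) stress genes described here are Hspa5, Hsp90b1, Xbp1, Ern1, Ern2, Atf6, Dnajb9, Herpud1, Sdf2l1 and Ddit3, 10 of the 35275 genes in the deposited table, chosen by name for their role in the unfolded protein response. RNA was sequenced from jejunal epithelial cells of 10 adult mice, labelled male and C57BL/6, with the genotype VillinCreERT2;MYO5Bflox/flox, so that tamoxifen deletes Myo5b only in cells that drive Cre from the villin promoter. The 3 control mice (numbers 2, 4 and 5, the controls) were given corn oil and were not induced. The 4 MYO5B-knockout mice (3, 5, 6 and 7, the vehicle knockouts) were given 2 mg of tamoxifen and then vehicle, 0.1% bovine serum albumin in PBS. The 3 LPA-treated MYO5B-knockout mice (1, 4 and 5, the LPA knockouts) were given the same tamoxifen and 3 mg/kg of lysophosphatidic acid, a bioactive phospholipid. Vehicle and LPA were injected into the peritoneum for 4 days. Cells were freed mechanically in EDTA, so that other cells of the mucosa could come with them. Because tamoxifen was given to every knockout mouse and to no control mouse, the drug and the loss of MYO5B cannot be told apart. The labels of LPA-treated mouse 1 name vehicle in a line and LPA in the next, and it was kept with the LPA group.

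Secreted and membrane proteins fold in the ER with the help of chaperones, and unfolded proteins activate the membrane sensors IRE1, ATF6 and PERK. IRE1 cuts the Xbp1 mRNA so that it encodes an active transcription factor, ATF6 is cleaved and moves to the nucleus, and PERK slows translation while it favours that of ATF4. The factors released in this way raise the genes for chaperones and for the degradation of misfolded proteins, and prolonged signalling raises Ddit3, which encodes the factor CHOP. In the intestine this response is known chiefly from secretory cells, the mucus-producing goblet cells and the Paneth cells of the crypt, which depend on XBP1, and from IRE1 beta, an epithelial form of IRE1. MYO5B is a motor protein that carries membrane proteins to the apical surface.

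The DNA elements through which this response acts are shown because they are known from chaperone and degradation genes, here Hspa5, Hsp90b1 and Herpud1. Promoters were taken from RefSeq on GRCm38.p6, from 250 bases before to 50 bases after the annotated start, and 8 of the 10 genes were matched, with no entry for Ern2 and Atf6. The searches, on both strands, were for the ER stress response element (CCAAT and CCACG with 9 bases between them), its second form (ATTGG and CCACG with 1 base between them), the unfolded protein response element (TGACGTGG) and the ATF4-type element (TTGCATCA). They occurred in 0.119%, 0.0365%, 0.676% and 0.895% of all 32851 promoters of that length. In the stretches below, read 5′ to 3′ on the strand of the gene, capitals mark these elements.
Hspa5, chr2:34772020-34772049, plus strand: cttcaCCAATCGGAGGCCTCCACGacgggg
Hsp90b1, chr10:86705520-86705664, minus strand: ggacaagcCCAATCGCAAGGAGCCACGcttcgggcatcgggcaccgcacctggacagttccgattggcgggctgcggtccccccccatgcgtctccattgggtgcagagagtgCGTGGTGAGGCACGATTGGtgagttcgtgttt
Herpud1, chr8:94386304-94386403, plus strand: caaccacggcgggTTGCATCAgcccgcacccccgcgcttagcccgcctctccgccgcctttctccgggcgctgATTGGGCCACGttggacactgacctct

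Only exact matches to these letters were searched, so elements that differ by a base were not counted in any window. Hspa5 held a single exact ER stress response element, from base 65 to base 47 before the RefSeq start. Hsp90b1 held 2, at bases 212 to 194 on the strand of the gene and at bases 107 to 89 on the opposite strand. Herpud1 held the second form at bases 52 to 42 and the ATF4-type element at bases 112 to 105, and no motif overlapped another. The start of Hspa5 in the deposited table lies 120 bases upstream of the RefSeq start, so the element lies inside the gene as deposited. None of these letters was found in the windows of Xbp1, Ern1, Dnajb9, Sdf2l1 and Ddit3, which says only that they are not in these windows. The segment that IRE1 removes from the Xbp1 mRNA was located in the GENCODE M21 transcript Xbp1-201 from sites of the form CNGCAGC, cut before their last base. It was the only stretch of 26 bases between such cuts, at bases 818 to 843 of 2129. It lies at chr11:5524282-5524307, in exon 4 of 5 and in the coding sequence. Below, it is shown with both cut sites, whose letters are in capitals. With the assumed cut, the segment starts at the last letter of the left site and ends before the last letter of the right site.
Xbp1: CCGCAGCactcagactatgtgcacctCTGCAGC
The deposited values count reads over the whole gene and do not separate spliced from unspliced Xbp1 mRNA.

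Levels are given in the deposited unit, FPKM, in which the reads of a gene are divided by its length in kilobases and by the size of the library. Values follow the order of mouse numbers 2, 4 and 5 for the controls, 3, 5, 6 and 7 for the vehicle knockouts and 1, 4 and 5 for the LPA knockouts, and gene positions are those of the deposited table on GRCm38. Between 10949420 and 24470409 reads per library lay on genes. Control mouse 2 and MYO5B-knockout mouse 3 gave libraries that stood apart, with 12242 and 12601 genes detected against 17309 to 18267 in the other 8, and with 17.4% and 18.0% of their reads on mitochondrial genes against 1.98% to 3.50%. Results are therefore given with all libraries and without these 2, called the few-gene pair from here on. The libraries of MYO5B-knockout mouse 3 and of LPA-treated mouse 1 had Xist at 8.41 and 15.1 FPKM, with 0 reads on the Y-linked genes counted, although the labels say male. Myo5b itself measured 16.5, 32.0 and 26.1 FPKM across the controls, between 10.5 and 13.6 FPKM across the vehicle knockouts and between 10.3 and 11.7 FPKM in LPA-treated mice. Nothing in the labels says whether mice shared a litter or a cage, and the spread used in every test is that between mice.

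The ER stress genes covered a wide range of abundance. Over the 8 other libraries the mean was highest for the chaperone gene Hspa5, at 443 FPKM, above 99.4% of the 35275 genes. Hsp90b1 followed at 146 FPKM, Xbp1 at 129, Herpud1 at 110, Sdf2l1 at 61.6, Dnajb9 at 39.3 and Ddit3 at 26.2 FPKM. The sensors were scarce, with Atf6 at 5.42 FPKM, Ern1 at 3.63 and Ern2 at 2.85 FPKM. Hspa5 lay above every other member in each of these 8 libraries. The ranges of Hsp90b1, Xbp1 and Herpud1 overlapped, as did those of Atf6, Ern1 and Ern2. All 10 genes passed the filter of a mean of at least 0.1 FPKM, and the scarcest, Ern2, still had between 22 and 303 reads per library.

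Between MYO5B-knockout and control mice no ER stress gene changed past the test, limma on the log2 of FPKM + 0.1 with Benjamini-Hochberg adjustment over 15729 genes and a two-sided threshold of 0.05. Of all genes tested, 2.01% were called. The estimates lay above 0 for 9 of the 10 genes and below 0 for Sdf2l1, with a median of 0.40 on the log2 scale, beside a median of 0.29 for all genes tested. After scaling each library by the median of its ratios, these medians were 0.12 and 0.037, with 8 genes above 0. The lowest adjusted p of any ER stress gene was that of Atf6 (limma, adjusted p = 0.331). On reads recovered from the FPKM the count called was 0 with edgeR and 0 with DESeq2, which called 3.82% and 7.99% of all genes. At an unadjusted p under 0.05 the count was 0 with limma and edgeR and 1 (Atf6) with DESeq2. Of all genes, 2764 of 15729 (limma), 2742 of 13594 (edgeR) and 3717 of 22484 (DESeq2) had such a p. Without the few-gene pair the count called was 0 again, against 6.52% of all genes. In that setting 3 ER stress genes, Atf6, Ern2 and Xbp1, had an unadjusted p under 0.05, as did 4042 of all 15821 genes.

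**Figure D1:**
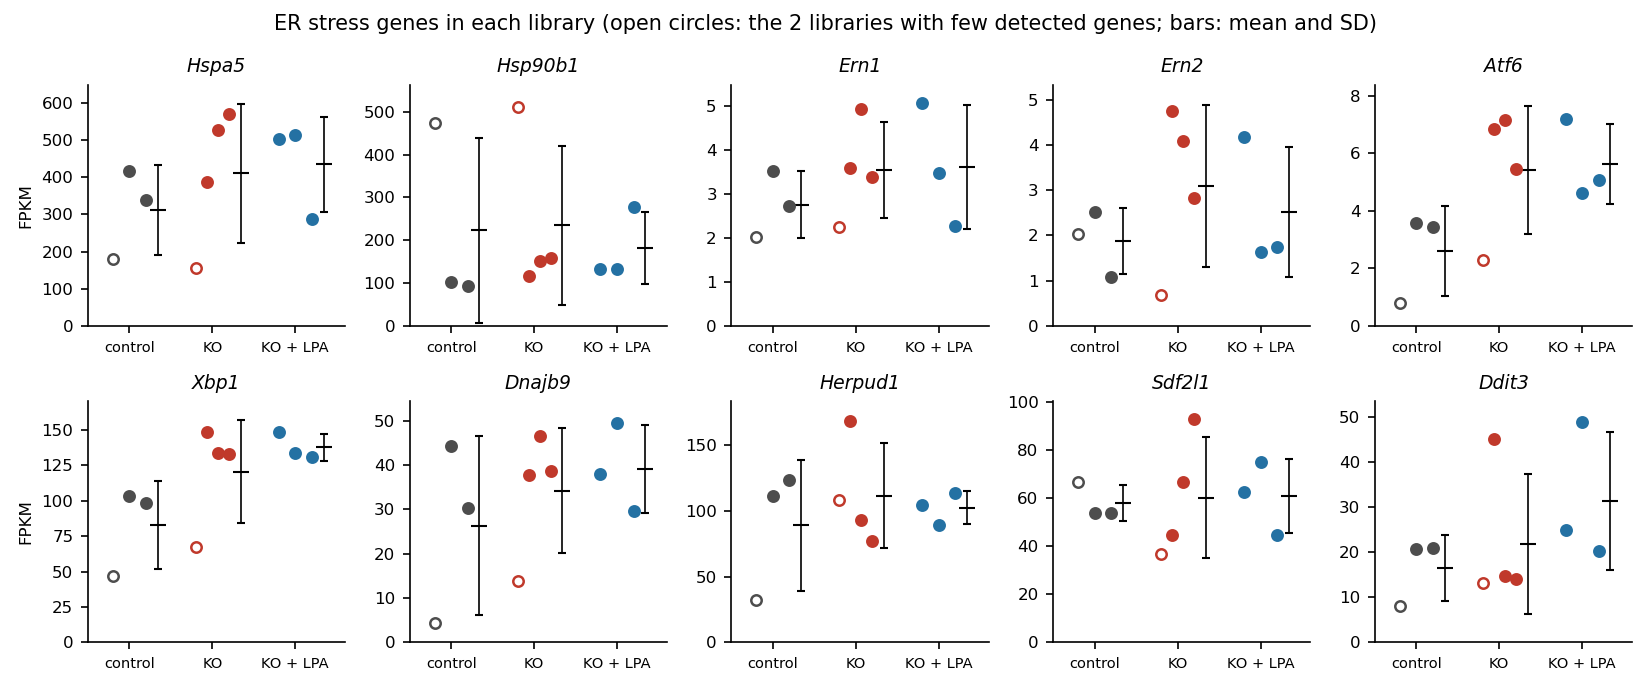
FPKM of the 10 ER stress genes in each library, on linear axes from 0, for control, MYO5B-knockout (KO) and LPA-treated MYO5B-knockout mice (KO + LPA). Open circles are control mouse 2 and MYO5B-knockout mouse 3, and the black bars are the mean and SD of the 3 or 4 libraries. The open circles lie lowest for Hspa5, Xbp1, Atf6, Dnajb9, Ern1 and Ddit3 and highest for Hsp90b1.

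Among the sensors, Atf6 (ENSMUSG00000026663, chromosome 1, 170704674 to 170867771, minus strand), which encodes the membrane-bound factor ATF6, measured 0.812, 3.59 and 3.43 FPKM across the controls. Across the vehicle knockouts it measured 2.28, 6.84, 7.16 and 5.45 FPKM. The groups overlapped only because MYO5B-knockout mouse 3 lay below control mice 4 and 5. The log2 fold change was 1.15 (95% interval -0.12 to 2.43, limma, adjusted p = 0.331). With the few-gene pair left out, the groups did not overlap, and the log2 fold change was 0.86 (95% interval 0.22 to 1.49, limma, adjusted p = 0.100).

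Ern2 (ENSMUSG00000030866, chromosome 7, 122169893 to 122186216, minus strand), which encodes IRE1 beta, measured 2.04, 2.51 and 1.08 FPKM across the controls and 0.676, 4.74, 4.08 and 2.83 FPKM across the vehicle knockouts. The lowest and the highest values both came from MYO5B-knockout mice, so the groups overlapped. The log2 fold change was 0.48 (95% interval -1.01 to 1.96, limma, adjusted p = 0.756) and, without the few-gene pair, 1.15 (95% interval 0.03 to 2.28, limma, adjusted p = 0.185). Ern1 (ENSMUSG00000020715, chromosome 11, 106394650 to 106487852, minus strand), which encodes the IRE1 form found in most tissues, measured 2.02, 3.53 and 2.73 FPKM across the controls and 2.26, 3.59, 4.93 and 3.40 FPKM across the vehicle knockouts. Its groups overlapped with and without the few-gene pair, and its log2 fold changes were 0.33 and 0.33 (limma, adjusted p = 0.725 and 0.617).

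Xbp1 (ENSMUSG00000020484, chromosome 11, 5520659 to 5525893, plus strand), the target of IRE1, measured 47.0, 103 and 98.5 FPKM across the controls and 67.3, 148, 134 and 133 FPKM across the vehicle knockouts. The few-gene pair held the lowest values of their groups. The log2 fold change was 0.56 (95% interval -0.24 to 1.37, limma, adjusted p = 0.458). Without the few-gene pair, 3 MYO5B-knockout mice at 133 to 148 FPKM lay above 2 control mice at 98.5 and 103 FPKM, a log2 fold change of 0.46 (95% interval 0.02 to 0.89, limma, adjusted p = 0.176).

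The 2 chaperone genes, whose promoters share the element shown above, went opposite ways in the few-gene pair. Hspa5 (ENSMUSG00000026864, chromosome 2, 34771970 to 34776531, plus strand), which encodes BiP, the main chaperone of the ER lumen, measured 180, 416 and 339 FPKM across the controls and 156, 387, 527 and 569 FPKM across the vehicle knockouts. Hsp90b1 (ENSMUSG00000020048, chromosome 10, 86690209 to 86705509, minus strand), which encodes GRP94, measured 473, 103 and 92.7 FPKM across the controls and 512, 117, 152 and 158 FPKM across the vehicle knockouts. Control mouse 2 and MYO5B-knockout mouse 3 thus held the 2 lowest values of Hspa5 and the 2 highest of Hsp90b1 among all 10 libraries. The log2 fold changes were 0.32 (95% interval -0.76 to 1.40) for Hspa5 and 0.24 (95% interval -1.21 to 1.68) for Hsp90b1, with limma's adjusted p = 0.778 and 0.887. The estimate of Hsp90b1 fell below 0 after median-ratio scaling (-0.055) and with edgeR (-0.24), and DESeq2 gave it no adjusted p. After dropping the few-gene pair, its groups did not overlap, at 92.7 and 103 FPKM in control mice and 117 to 158 FPKM in MYO5B-knockout mice, and its log2 fold change was 0.53 (95% interval -0.23 to 1.29, limma, adjusted p = 0.352).

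The ratio of Hsp90b1 to Hspa5 within a library, which does not depend on how libraries are scaled, was 2.63 in control mouse 2 and 3.28 in MYO5B-knockout mouse 3. It was 0.967 in LPA-treated mouse 5 and between 0.248 and 0.302 in the other 7 libraries. LPA-treated mouse 5 also had the highest mitochondrial share of the 8 remaining libraries, at 3.50%. The high ratios occurred in a library of each group, and whether they came with the mitochondrial share for a technical or a biological reason was not tested.

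**Figure D2:**
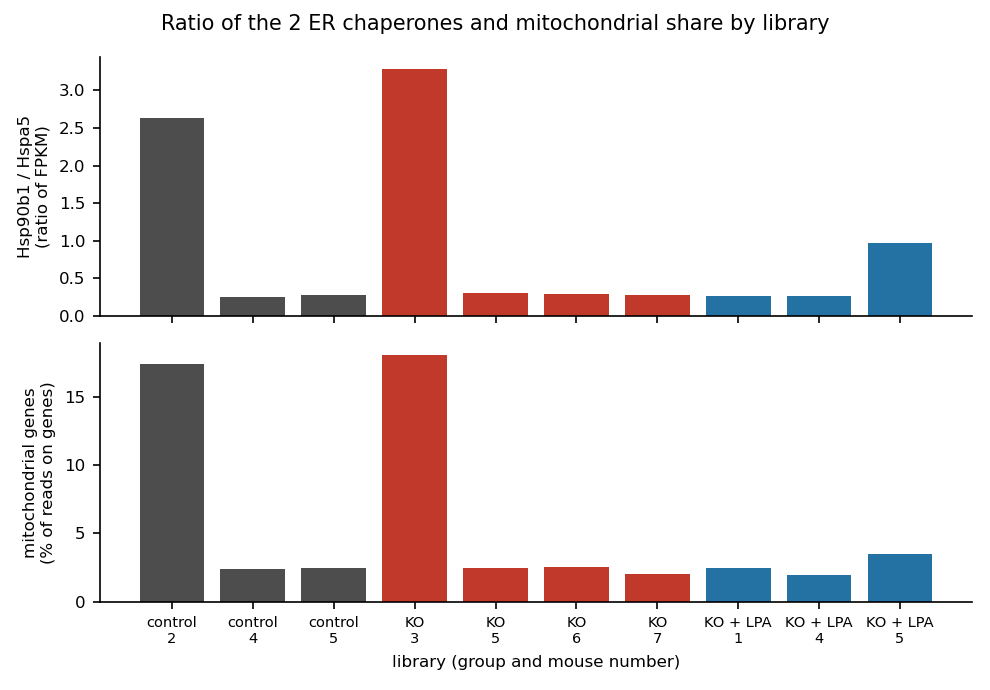
Ratio of the FPKM of Hsp90b1 to that of Hspa5 (top) and share of reads on mitochondrial genes in percent (bottom) in each library, named by group and mouse number, with KO for MYO5B-knockout. Both bars are highest in control mouse 2 (2.63 and 17.4%) and MYO5B-knockout mouse 3 (3.28 and 18.0%), and LPA-treated mouse 5 follows in both (0.967 and 3.50%).

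The genes for co-chaperones and for ER-associated degradation showed no shared direction. Dnajb9 (ENSMUSG00000014905, chromosome 12, 44205897 to 44210068, minus strand), which encodes the BiP partner ERdj4, measured 4.42, 44.2 and 30.3 FPKM across the controls and 13.9, 37.8, 46.5 and 38.7 FPKM across the vehicle knockouts, so that its 11.2-fold range over all libraries came from the few-gene pair and shrank to 1.67-fold without them. Its log2 fold change was 0.78 with all libraries and 0.16 without the few-gene pair (limma, adjusted p = 0.607 and 0.756). Herpud1 (ENSMUSG00000031770, chromosome 8, 94386438 to 94395377, plus strand), which encodes a membrane protein of the degradation machinery, measured 32.1, 111 and 123 FPKM across the controls and 108, 168, 93.0 and 76.8 FPKM across the vehicle knockouts. Here only control mouse 2 lay low, and the log2 fold change went from 0.49 to -0.14 without the few-gene pair (limma, adjusted p = 0.617 and 0.820). Sdf2l1 (ENSMUSG00000022769, chromosome 16, 17130138 to 17132383, minus strand), which encodes an ER protein that works with BiP, measured 66.7, 53.6 and 53.8 FPKM across the controls and 36.8, 44.4, 66.4 and 92.6 FPKM across the vehicle knockouts. The MYO5B-knockout mice surrounded the control mice, with log2 fold changes of -0.035 and 0.27 (limma, adjusted p = 0.975 and 0.639).

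Ddit3 (ENSMUSG00000025408, chromosome 10, 127290774 to 127296288, plus strand) measured 8.13, 20.8 and 20.9 FPKM across the controls and 13.2, 45.1, 14.8 and 14.1 FPKM across the vehicle knockouts. MYO5B-knockout mouse 5 alone lay above the control mice, and the other 3 lay below control mice 4 and 5. The log2 fold change was 0.30 (95% interval -0.87 to 1.47, limma, adjusted p = 0.808) and 0.022 without the few-gene pair. The gene overlaps Mars and Gm4189, whose reads together came to 223% of its own, and the strand setting of the counting is not given in the sources used here, so its level is uncertain.

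**Figure D3:**
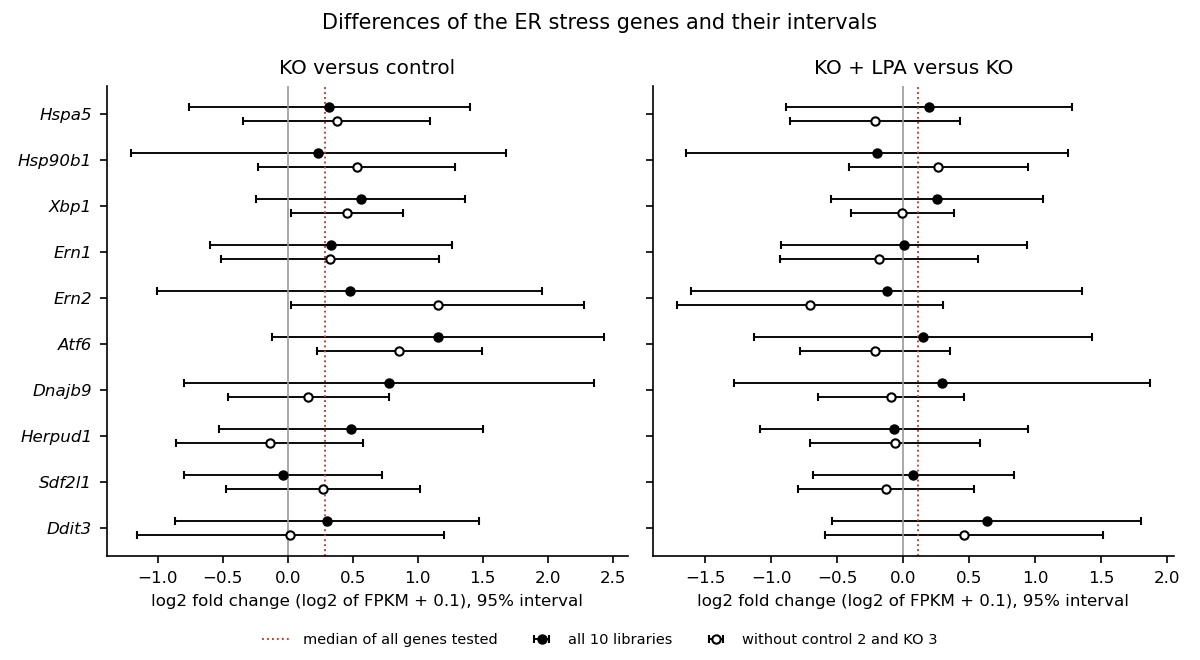
Log2 fold change of each ER stress gene (log2 of FPKM + 0.1) with its 95% interval from limma, for MYO5B-knockout against control mice (left) and LPA-treated against MYO5B-knockout mice (right), with all 10 libraries (filled) and without the few-gene pair (open). The dotted line is the median of all genes tested (0.29 and 0.11), and every filled interval crosses 0.

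The intervals show what the design could not resolve. With all libraries they reached a log2 fold change of 1.40 for Hspa5, 1.37 for Xbp1 and 2.43 for Atf6. Rises of the group mean of up to that size thus lie within the intervals. Without the few-gene pair the upper ends were 0.89 for Xbp1, 0.78 for Dnajb9, 1.29 for Hsp90b1 and 1.49 for Atf6. That of Ern2 rose from 1.96 to 2.28.

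LPA treatment of MYO5B-knockout mice was compared with vehicle to ask what LPA changes once MYO5B is lost. No ER stress gene was called, and limma called 0% of all genes tested. At an unadjusted p under 0.05 limma had 459 genes, of which 0 were ER stress genes, and edgeR called 0 genes and DESeq2 0.0222% of all genes, again with 0 ER stress genes. The estimates of 7 ER stress genes lay above 0, with a median of 0.11 beside 0.11 for all genes, and without the few-gene pair only 2 of 10 did, with a median of -0.11 beside -0.11.

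In LPA-treated mice 1, 4 and 5 Hspa5 lay at 503, 513 and 288 FPKM and Hsp90b1 at 132, 134 and 278 FPKM, so mouse 5 was the lowest for the former and the highest for the latter. Xbp1 lay at 149, 134 and 131 FPKM, beside 133 to 148 FPKM in MYO5B-knockout mice 5, 6 and 7. Atf6 lay at 7.20, 4.62 and 5.09 FPKM, Ern1 at 5.08, 3.49 and 2.27 FPKM and Ern2 at 4.16, 1.63 and 1.74 FPKM. Each of these 3 sensors was highest in mouse 1, the mouse whose labels disagree, and the LPA and vehicle groups overlapped for all of them. Dnajb9 lay at 38.1, 49.6 and 29.7 FPKM, Herpud1 at 104, 88.9 and 114 FPKM and Sdf2l1 at 62.4, 75.1 and 44.6 FPKM. Ddit3 lay at 25.0, 48.9 and 20.3 FPKM and had the largest estimate of the 10, a log2 fold change of 0.63 (95% interval -0.54 to 1.80, limma, adjusted p = 1). When the few-gene pair was left out, the lowest adjusted p was that of Ern2, at a log2 fold change of -0.71 (95% interval -1.71 to 0.30, limma, adjusted p = 0.497).

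Between LPA-treated MYO5B-knockout and control mice, a comparison that shares mice with both others, no ER stress gene was called, against 2.32% of all genes. The count was 0 as well with edgeR, with DESeq2 and without the few-gene pair, settings that called 3.10%, 6.54% and 9.98% of all genes. At an unadjusted p under 0.05 it was 0 with limma and edgeR, 2 (Atf6 and Xbp1) with DESeq2 and 3 (Atf6, Hsp90b1 and Xbp1) without the few-gene pair. Of all genes, 2582 of 15729 (limma), 2321 of 13594 (edgeR) and 3216 of 22484 (DESeq2) had such a p. Without the few-gene pair 4249 of 15821 did. Xbp1 and Atf6 lay higher in every LPA-treated mouse than in every control mouse, as 20.5% of all genes tested did, and none lay lower, as 6.38% did. Their log2 fold changes were 0.82 (95% interval -0.04 to 1.67) and 1.30 (95% interval -0.06 to 2.67), with limma's adjusted p = 0.330 and 0.327. Without the few-gene pair, Hsp90b1 joined them, while 26.3% of all genes lay that way and 18.7% the other way, and the 3 log2 fold changes were 0.45 for Xbp1, 0.64 for Atf6 and 0.80 for Hsp90b1 (limma, adjusted p = 0.171, 0.180 and 0.167). For MYO5B-knockout against control mice, 0 genes of the 10 did not overlap with all libraries, beside 11.0% of all genes higher and 6.20% lower. In the 8 other libraries, Hsp90b1, Xbp1, Ern2 and Atf6 lay higher in every MYO5B-knockout mouse, beside 35.5% of all genes, and none lay lower, beside 20.5%. Between LPA and vehicle knockouts no ER stress gene was without overlap, beside 3.56% of all genes higher and 0.604% lower, or 6.73% and 5.05% without MYO5B-knockout mouse 3.

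Other genes of the pathway were read from 5 lists. Of 17 tested targets of PERK and of the integrated stress response, which acts through ATF4, 3 rose in MYO5B-knockout mice and 0 fell, where 2.01% of all genes were called, with a median log2 fold change of 0.91 beside 0.29 for all genes. Slc3a2, an amino acid transporter subunit, was called lower after median-ratio scaling, with edgeR and with DESeq2. Of 20 ER chaperones and folding enzymes 1 rose, with a median of 0.28. None passed among 9 sensors and transcription factors (median 0.62), 16 genes of ER-associated degradation (0.16) and 18 genes of translocation into and export from the ER (0.43). After median-ratio scaling the medians were 0.62 for the PERK and integrated stress response targets, 0.33 for sensors and 0.14 for translocation and export, but -0.012 for chaperones, with 10 of 20 below 0, and -0.13 for degradation, with 10 of 16 below 0, beside 0.037 for all genes. In LPA-treated mice against control mice, 4 targets of PERK and the integrated stress response (Asns, Chac1, Psat1 and Slc7a11) and 2 chaperones and folding enzymes (Agr2 and Ero1l) rose, where 2.32% of all genes were called, and in LPA-treated against MYO5B-knockout mice none of the listed genes passed.

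**Figure D4:**
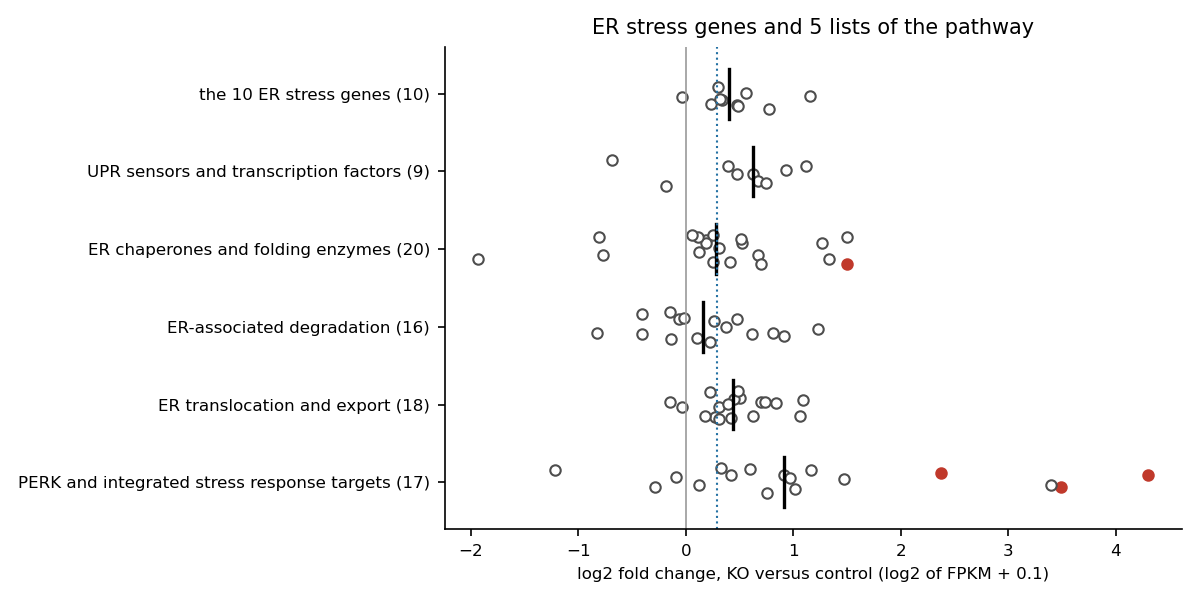
Log2 fold change between MYO5B-knockout (KO) and control mice (log2 of FPKM + 0.1) for the 10 ER stress genes and for 5 lists of the pathway, a circle per gene, with the number of genes tested in brackets and the vertical spread added for legibility. Filled circles passed limma's adjusted p of 0.05 (Ero1l, Asns, Psat1 and Chac1), black bars are list medians and the dotted line is the median of all genes, 0.29.

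Asns, which encodes asparagine synthetase, measured 6.69, 10.9 and 9.46 FPKM across the controls and 29.1, 73.9, 46.2 and 45.7 FPKM across the vehicle knockouts. Every MYO5B-knockout mouse, mouse 3 included, lay above every control mouse, with a log2 fold change of 2.37 (SE 0.35, limma, adjusted p = 0.00959). Without the few-gene pair it was 2.40 (limma, adjusted p = 0.00391). The call held in 18 of 20 settings and was lost without control mouse 5 (2.42, limma, adjusted p = 0.0571) and with only the groups compared in the fit (limma, adjusted p = 0.0504). The LPA knockouts held 105, 65.4 and 89.8 FPKM of Asns, 0.88 above vehicle on the log2 scale (SE 0.35, limma, adjusted p = 1).

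Psat1, which encodes an enzyme of serine synthesis, measured 1.00, 2.56 and 1.51 FPKM across the controls and 10.9, 33.1, 21.8 and 15.4 FPKM across the vehicle knockouts. Its groups did not overlap, and its log2 fold change of 3.49 (SE 0.48, limma, adjusted p = 0.00852) was 3.44 without the few-gene pair (limma, adjusted p = 0.00540). Without control mouse 5 its adjusted p was 0.0507 by limma. The LPA knockouts held 46.2, 18.9 and 20.5 FPKM.

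Chac1, which encodes an enzyme that degrades glutathione and is a known target downstream of CHOP and ATF4, measured 0.277, 0.476 and 0.174 FPKM across the controls, on 5, 12 and 5 reads. Across the vehicle knockouts it measured 1.84, 39.8, 8.07 and 5.50 FPKM, each above every control mouse, and MYO5B-knockout mouse 5, the mouse with the highest Ddit3 of its group, was the highest. The log2 fold change was 4.30 (SE 0.87, limma, adjusted p = 0.0377) and 4.94 without the few-gene pair (limma, adjusted p = 0.0126). The call held in 8 of 20 settings, the main setting included, and was lost with a pseudocount of 1 (2.80) and on leaving out any mouse but MYO5B-knockout mouse 3. It was 3.51 without MYO5B-knockout mouse 5, at limma's adjusted p = 0.0646. The LPA knockouts held 21.7, 10.7 and 6.46 FPKM, highest in mouse 1, whereas their Ddit3 was highest in mouse 4, at 48.9 FPKM. MYO5B-knockout mice 3, 6 and 7 had Chac1 above every control mouse but Ddit3 below control mice 4 and 5. Whether Chac1 followed Ddit3 was not tested.

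Slc7a11, which encodes the cystine transporter and answers to ATF4, had 0, 0 and 1 reads in control mice. MYO5B-knockout mice 3, 5, 6 and 7 had 103, 1089, 102 and 35 reads, or 1.02, 6.85, 0.541 and 0.168 FPKM, and limma's adjusted p was 0.0837. LPA-treated mice 1, 4 and 5 had 1179, 641 and 799 reads, or 5.22, 4.02 and 6.50 FPKM, all above the control mice and above 3 of the 4 MYO5B-knockout mice. It passed the test between LPA-treated and control mice (limma, adjusted p = 0.0170), and a fitted fold change against so few reads depends on the pseudocount. The ratio of pooled reads, each scaled to its library total, was 2089 (exact 95% interval 375 to 82547, which covers counting error only). That call was lost on leaving out any of the LPA knockouts or control mouse 4 or 5 (limma's adjusted p from 0.0584 to 0.0824).

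Among the folding enzymes, Ero1l, which encodes the oxidase that drives disulfide formation, measured 7.61, 11.3 and 9.45 FPKM across the controls and 21.5, 28.0, 26.8 and 30.6 FPKM across the vehicle knockouts. It rose by a log2 fold change of 1.50 (SE 0.25, limma, adjusted p = 0.0209), and by 1.45 without the few-gene pair (limma, adjusted p = 0.00720). It was called in 14 of 20 settings, and leaving out any of MYO5B-knockout mice 5, 6 and 7 or control mice 4 and 5 lost the call at adjusted p between 0.0528 and 0.104 by limma. The LPA knockouts held 29.2, 25.3 and 31.0 FPKM of Ero1l. Ero1lb of the same list, chosen after its values were seen, went the other way. It measured 3.35, 6.84 and 5.51 FPKM across the controls and 0.280, 1.38, 2.24 and 2.35 FPKM across the vehicle knockouts. Its log2 fold change was -1.93 (limma, adjusted p = 0.186), and DESeq2 called it lower. Agr2, which encodes a disulfide isomerase that goblet cells need to make mucin, measured 132, 266 and 263 FPKM across the controls, 288, 702, 530 and 729 FPKM across the vehicle knockouts and 741, 966 and 695 FPKM across the LPA knockouts. It passed between LPA-treated and control mice (log2 fold change 1.92, SE 0.42, limma, adjusted p = 0.0471), in 8 of 21 settings, and the call was lost on leaving out any mouse but MYO5B-knockout mouse 3. Between MYO5B-knockout and control mice its log2 fold change was 1.33 (limma, adjusted p = 0.115), and 1.29 without the few-gene pair (limma, adjusted p = 0.0251).

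**Figure D5:**
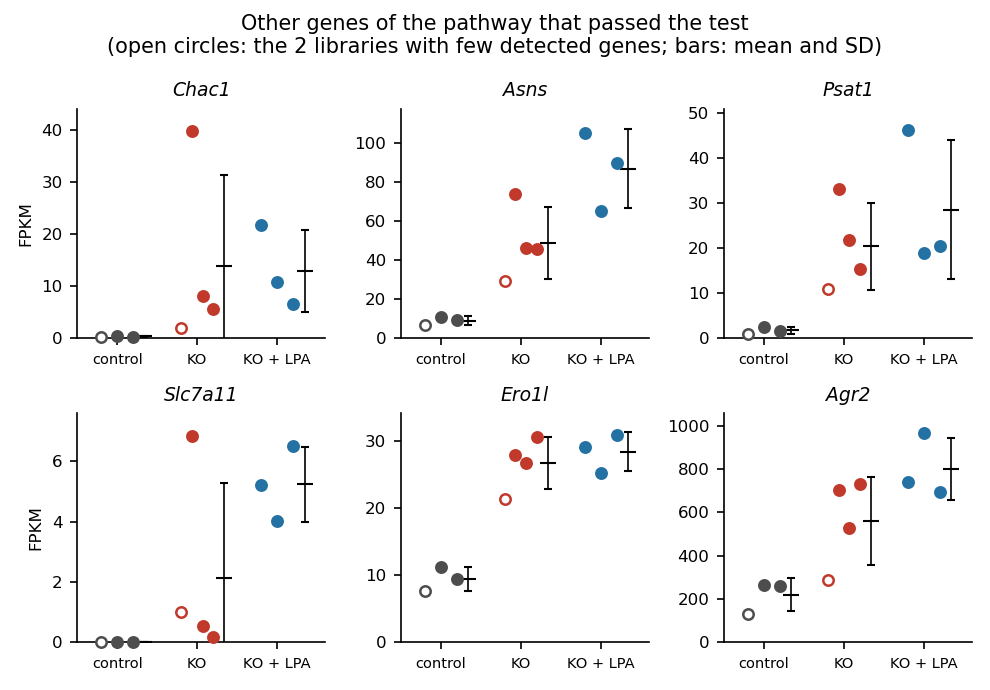
FPKM in each library, on linear axes from 0, of the 6 genes from the pathway lists that passed limma's test in a comparison with control mice, for control, MYO5B-knockout (KO) and LPA-treated MYO5B-knockout mice (KO + LPA). Open circles are the few-gene pair, and bars are the mean and SD, with the part below 0 not drawn. No knockout value of these 6 genes, with or without LPA, lies below a control value.

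The extremes of the lists with no call were named by their estimates, and of these genes Os9 alone was called between MYO5B-knockout and control mice in any of 20 settings. Among sensors and transcription factors, Eif2ak3, which encodes PERK, measured 1.63, 6.88 and 6.10 FPKM across the controls and 2.61, 14.3, 16.4 and 10.6 FPKM across the vehicle knockouts (log2 fold change 1.11, limma, adjusted p = 0.444). Creb3l2, which encodes an ATF6-like factor, had the lowest estimate there, -0.69 (limma, adjusted p = 0.706). Edem3 and Os9, both of the degradation machinery, had log2 fold changes of 1.23 and -0.82 (limma, adjusted p = 0.349 and 0.284). Os9 was called lower in 2 settings, at -1.11 after median-ratio scaling (limma, adjusted p = 0.0379) and at -1.10 with DESeq2 (adjusted p = 0.000894), which also called Erlec1 of the same list lower. Srp19, of the signal recognition particle, and Sec31a, of the vesicle coat that leaves the ER, had 1.09 and -0.15 (limma, adjusted p = 0.226 and 0.791). With the few-gene pair removed, 6.52% of all genes were called between MYO5B-knockout and control mice, and so were 4 of 20 chaperones and folding enzymes (Agr2, Dnajc10, Ero1l and Pdia6) and 2 of 18 genes of translocation and export (Spcs3 and Ssr3), all higher. Of the 17 targets of PERK and the integrated stress response 3 were higher and Slc3a2 lower. Between LPA-treated and control mice that setting called 9.98% of all genes. Among the lists it called Agr2, Dnajc10, Ero1l, Pdia6, Spcs3, Ssr1, Asns, Chac1, Nupr1, Ppp1r15a, Psat1 and Slc7a11 higher and Creb3l2, Ero1lb and Slc3a2 lower.

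As a description, the genes most like Hspa5 over the 10 libraries, by Pearson's r of the log2 values, were Pdia3, which encodes an ER disulfide isomerase (r = 0.98, and 0.92 over the 8 libraries without the few-gene pair), Casp8 (0.98 and 0.97), Myo1e (0.98 and 0.92), Suox (0.97 and 0.90) and Abcf3 (0.97 and 0.95). Those most like Ern2 were Rab23 (0.99 and 0.99), Camsap1 (0.97 and 0.96), Med12 (0.97 and 0.95), Smyd5 (0.96 and 0.97) and Zfp507 (0.95 and 0.95). With Hspa5 over 10 and over 8 libraries, the other ER stress genes had r of -0.82 and -0.20 (Hsp90b1), 0.84 and 0.37 (Xbp1), 0.84 and 0.77 (Ern1), 0.65 and 0.47 (Ern2), 0.79 and 0.40 (Atf6), 0.85 and 0.77 (Dnajb9), 0.31 and -0.66 (Herpud1), 0.62 and 0.86 (Sdf2l1) and 0.51 and -0.097 (Ddit3). Genes of a library share its depth, and the r over all libraries also carries the separation of the few-gene pair.

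The labelled tissue was read against marker lists, none of which was absent. The 8 epithelial markers (Vil1, Epcam, Cdh1, Krt8, Krt18, Krt19, Krt20 and Cdx2) had a summed level from 5536 to 7494 FPKM in control, from 8174 to 10596 FPKM in MYO5B-knockout and from 9279 to 11916 FPKM in LPA-treated mice. They did not share a direction, in examples picked with the values known. Krt19 measured 789, 917 and 902 FPKM across the controls and 1911, 2095, 1229 and 1632 FPKM across the vehicle knockouts. Vil1 measured 216.5, 895 and 856 FPKM and then 69.3, 349, 635 and 679 FPKM. The 10 enterocyte markers, led by Fabp1 and Rbp2, summed to 38436 to 51129 FPKM in control, 20256 to 34317 FPKM in MYO5B-knockout and 30707 to 59030 FPKM in LPA-treated mice. Members of this list differed in direction, as Lct, the lactase gene, lay between 114 and 241 FPKM in control mice and at 3.57 FPKM or less in every knockout mouse, while Alpi, an alkaline phosphatase gene, measured 109, 540 and 426 FPKM across the controls and 170, 1005, 1081 and 878 FPKM across the vehicle knockouts. Both were chosen after their values were seen. The 9 goblet markers, led by Zg16 and Tff3, summed to 10081 to 11897, 6787 to 11265 and 11229 to 20844 FPKM in the same order. The 8 Paneth markers, led by Defa24 and Defa17, summed to 4178 to 10751, 3785 to 6798 and 1148 to 4462 FPKM. The sums of 4178 and 6798 FPKM came from the few-gene pair. Without it the ranges were 10005 to 10751 FPKM in control and 3785 to 6673 FPKM in MYO5B-knockout mice. Members of this list did not all lie lower, in examples chosen after their values were seen. Defa24 measured 6748 and 6101 FPKM in control mice 4 and 5 and 3624, 3598 and 2137 FPKM in MYO5B-knockout mice 5, 6 and 7. Mmp7 measured 44.1 and 36.6 FPKM and then 63.0, 41.7 and 40.5 FPKM in the same mice.

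Plasma cells also depend on XBP1, and their 11 markers, led by Igha and Igkc, summed to 1186 to 10768 FPKM in control, 128 to 1442 FPKM in MYO5B-knockout and 362 to 2059 FPKM in LPA-treated mice. The sums of 10768 and 1442 FPKM came from the few-gene pair. Without it the ranges were 1186 to 1919 FPKM in control and 128 to 235 FPKM in MYO5B-knockout mice. The 10 T cell markers, led by Gzma and Gzmb, summed to 320 to 441, 11.9 to 130 and 22.4 to 43.6 FPKM. The 9 stromal markers, led by Vim and Acta2, stayed between 3.12 and 13.2 FPKM, and the 10 proliferation markers, led by Pcna and Birc5, summed to 88.7 to 123, 206 to 333 and 153 to 253 FPKM. No marker of these lists was at 0 in every library. Fewer cells of a type and less RNA per cell cannot be told apart in such samples, and the part of these markers in the levels of the ER stress genes was not tested.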

How the data were processed

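The authors deposited FPKM for 35275 genes in 10 libraries of poly-T selected mRNA. The submitters' processing notes name STAR 2.5, TopHat, HTSeq 0.6.1 and DESeq2 and the build GRCm38, with no roles. FPKM times gene length was a whole multiple of a single read in 100% of values (tolerance 0.1 read), and 63 of 63 counts in the table of genes that the authors called between the LPA and vehicle groups matched these deposited values. A single read on 1 kb was worth 0.0409 to 0.0913 FPKM. The authors' fold changes and p-values in that table and their KEGG enrichment tables were not used.

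Genes averaging 0.1 FPKM or more over the libraries (15729) were fitted on log2(FPKM + 0.1) with limma 3.58.1 (trended variance, 3 groups, two-sided, Benjamini-Hochberg, threshold 0.05) in R 4.3.3. Fold changes on this scale understate those of low genes. Alternatives were edgeR 4.0.16 and DESeq2 1.42.0 on recovered reads, pseudocounts of 1 and 0.01, no filter, median-ratio scaling, quantile normalization, only the 2 groups compared, each mouse left out, and leaving out control mouse 2 and MYO5B-knockout mouse 3. Promoter motifs were written from their known consensus. Fits were tested on simulated data. Members, lists and alternatives were chosen with earlier results of these data known. From each list, genes called were named, up to 4 per direction, or else the highest and lowest estimate. The other genes named as called only without the 2 libraries were chosen after their values were seen, as was the likeness of Hspa5 with other members. The listed names Ero1a, Ero1b, Selenos, Defa30 and Jchain were absent from the table. Ero1a, Ero1b, Selenos and Jchain are other names of Ero1l, Ero1lb, Vimp and Igj, which were analysed, so only Defa30 was left out.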

Additional observations from a re-analysis of the deposited data

Results flagged for a closer look

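Among groups of 4 mice, a mouse whose distance from the nearest other was a large part of the group's whole range (Dixon's 95% critical value) was found for 4 of 22 genes examined in MYO5B-knockout mice, where chance gives about 1 in 20 for independent groups that were not chosen. That rate does not apply here, since some of the genes were named for their change and 3 of the 4 values come from the same mouse. Hsp90b1 lay at 512 FPKM in MYO5B-knockout mouse 3, the library with few detected genes, against 117 to 158 FPKM in the other 3. Ddit3 lay at 45.1 FPKM in MYO5B-knockout mouse 5, against 13.2 to 14.8 FPKM in the others. Chac1 and Slc7a11 lay at 39.8 and 6.85 FPKM in the same mouse, against at most 8.07 and 1.02 FPKM in the others.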

How the results depend on the processing

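No ER stress gene was called in any of the 3 comparisons under any of 19, 19 and 20 alternatives, and the lowest adjusted p was 0.100, 0.497 and 0.167. The estimates changed sign in 16 of 190, 33 of 190 and 26 of 200 values; the cause was not tested. Of all genes, limma called 316, 0 and 365, DESeq2 called 1797, 5 and 1471, quantile normalization gave 804, 0 and 626, and leaving out a mouse gave 44 (control mouse 5) to 448, 0, and 75 to 719. Median-ratio scaling gave 604 (225 higher, 379 lower) against 177 higher and 139 lower. With only the groups compared 54 genes were called between knockout and control, with no filter 188, with edgeR 519 and 1032 without control mouse 2 and mouse 3 of the vehicle knockouts (the few-gene pair), with 1579 between LPA-treated and control mice.

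For MYO5B-knockout against control, log2 values that reversed were -0.25 (DESeq2), -0.24 (edgeR) and -0.055 (median-ratio scaling) for Hsp90b1 and, without the few-gene pair, -0.14 for Herpud1 and 0.27 for Sdf2l1. For LPA-treated against MYO5B-knockout, without the few-gene pair they were -0.22 for Hspa5, 0.27 for Hsp90b1, -0.0067 for Xbp1, -0.19 for Ern1, -0.21 for Atf6, -0.092 for Dnajb9, -0.13 for Sdf2l1, -0.16 for Eif2ak3, -0.0035 for Ero1l, -0.061 for Os9 and -0.080 for Chac1. With DESeq2, edgeR, median-ratio scaling and quantile normalization they were -0.042, -0.039, -0.074 and -0.060 for Ern1 and -0.048, -0.047, -0.0068 and -0.047 for Sdf2l1, and with DESeq2 and edgeR -0.0035 and -0.0062 for Chac1. For LPA-treated against control, with DESeq2, edgeR and median-ratio scaling they were -0.95, -0.89 and -0.33 for Hsp90b1, with quantile normalization added -0.044, -0.0053, -0.0098 and -0.032 for Ern2 and -0.38, -0.34, -0.33 and -0.072 for Sdf2l1. Ern1 gave -0.023 (median-ratio scaling) and -0.032 (quantile normalization), and Herpud1 -0.039 (DESeq2), -0.020 (edgeR) and -0.20 (without the few-gene pair).

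Leaving out single mice reversed some log2 values. For MYO5B-knockout against control they ran from -0.035 to 0.73 for Hspa5, from -0.23 to 0.99 for Hsp90b1, from -0.23 to 1.42 for Dnajb9, from -0.13 to 0.84 for Herpud1, from -0.27 to 0.17 for Sdf2l1, from -0.15 to 0.53 for Ddit3. For LPA-treated against MYO5B-knockout they ran from -0.22 to 0.47 for Hspa5, from -0.55 to 0.27 for Hsp90b1, from -0.0067 to 0.37 for Xbp1, from -0.27 to 0.29 for Ern1, from -0.71 to 0.17 for Ern2, from -0.21 to 0.32 for Atf6, from -0.092 to 0.49 for Dnajb9, from -0.23 to 0.15 for Herpud1, from -0.13 to 0.31 for Sdf2l1, from -0.16 to 0.81 for Eif2ak3, from -0.87 to 0.090 for Creb3l2, from -0.0035 to 0.18 for Ero1l, from -0.35 to 0.23 for Edem3, from -0.061 to 0.42 for Os9, from -0.08 to 1.37 for Chac1. For LPA-treated against control they ran from -0.38 to 0.80 for Hsp90b1, from -0.068 to 0.59 for Ern2, from -0.20 to 0.77 for Herpud1, from -0.13 to 0.25 for Sdf2l1.

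Mouse numbers 4 and 5 occur in both the control and the LPA-treated group, and the other pairs of groups share only number 5, so a paired fit was possible there alone. The labels do not say that a number marks a shared litter or cage. With the replicate block 0 genes were called between LPA-treated and control mice (3741 at an unadjusted p under 0.05), Ern1 and Herpud1 gave -0.14 and -0.22, and the 6 pathway genes called without it were not called.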
